A study of Mus musculus with 14 samples.

Results

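F-box protein genes were examined in the transcriptomes of single mouse embryos made by somatic cell nuclear transfer (SCNT), in which the nucleus of a donor cell is placed into an enucleated egg. The members are all genes whose symbol is Fbxo, Fbxl or Fbxw followed by a number. There were 75 of them among the 20242 genes with a symbol in the deposited values, namely 36 Fbxo, 18 Fbxl and 21 Fbxw genes. They had 95 of the 25250 transcript entries with a symbol, and the entries of a gene were summed. The rule uses the symbol and no level, but it was set with earlier results of these data known.

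Total RNA of 14 embryos of the B6D2F1 strain was sequenced at the 2-cell stage, 28 h after nuclear transfer per the labels, with 1 library per embryo. The study asked how trichostatin A (TSA), an inhibitor of histone deacetylases, and vitamin C (VC), a cofactor of enzymes that remove histone and DNA methylation, act on SCNT embryos when given at different times. The medium held 50 nM TSA or 10 µg/ml VC. There were 3 untreated controls. VC from 0 to 8 h was given to 1 embryo (early VC, marked VC(0-8 h) in the plots) and VC from 8 to 15 h to 2 embryos (late VC, marked VC(8-15 h)). TSA from 0 to 8 h was given alone to 3 embryos (TSA), along with early VC to 2 (TSA+early VC) and before late VC to 3 (TSA+late VC). All embryos, controls included, were activated with strontium and cytochalasin B in medium with deionized bovine serum albumin, and the study used cumulus cells of B6D2F1 mice as donors. No fertilized embryo was compared here, so the controls are untreated SCNT embryos. A number in the headers of the deposited values splits the libraries into 3 sets, taken here as sequencing pools, which the study does not name. Every comparison of 3 with 3 embryos had 1 embryo of each group in each pool.

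F-box proteins are the substrate-binding subunits of SCF ubiquitin ligases. The F-box holds on to Skp1, which links it to the scaffold Cul1 and the RING protein Rbx1, and the rest of the F-box protein picks the target that is to be marked with ubiquitin and, most often, degraded. Fbxw proteins carry WD40 repeats, Fbxl proteins leucine-rich repeats, and Fbxo proteins other domains. In oocytes and early embryos such ligases take part in the removal of maternal proteins and in the control of the cell cycle, and a cluster of Fbxw genes is known for expression in mouse oocytes.

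Expression was measured in RPKM, the reads of a transcript divided by its length and by the total reads counted, so levels of different genes can be compared per length. Only 5 members, Fbxo15, Fbxo11, Fbxo42, Fbxo34 and Fbxl5, were at 1 RPKM or more in all 14 embryos. Fbxl5 met this only as the sum of its 2 entries, since neither reached 1 RPKM in TSA replicate 2 (0.403 and 0.963 RPKM) or late VC replicate 2 (0.426 and 0.636 RPKM). Another 18 reached 1 RPKM in 7 to 13 embryos and 32 in 1 to 6 embryos. The other 20 stayed under 1 RPKM everywhere, and 5 of these (Fbxo2, Fbxo24, Fbxo44, Fbxl8 and Fbxw17) were listed at 0 in every embryo. The libraries held 3021540 to 13589389 counted reads, so on a transcript of 1 kb a level of 3 reads was worth 0.221 to 0.993 RPKM, and levels near these bounds could not be told from absence.

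An embryo had between 14 and 38 members at 1 RPKM or more, which is 18.7 to 50.7% of the members, while 15.3 to 30.4% of all genes were at that level. The count was 32, 24 and 25 in the controls, 21, 20 and 19 with TSA and 30, 28 and 24 with TSA+late VC. The early VC embryo had 29, the late VC embryos 28 and 14 and the TSA+early VC embryos 31 and 38. The 3 TSA embryos, at 19 to 21 members, lay below every control and every embryo with both TSA and VC. The number of all genes at 1 RPKM was also low in TSA embryos, at 3718 ± 366 (SD, n = 3), against 4461 ± 770 (SD, n = 3) in controls and 5162 ± 112 (SD, n = 3) in TSA+late VC embryos, and its part in the members' count was not tested.

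**Figure D1:**
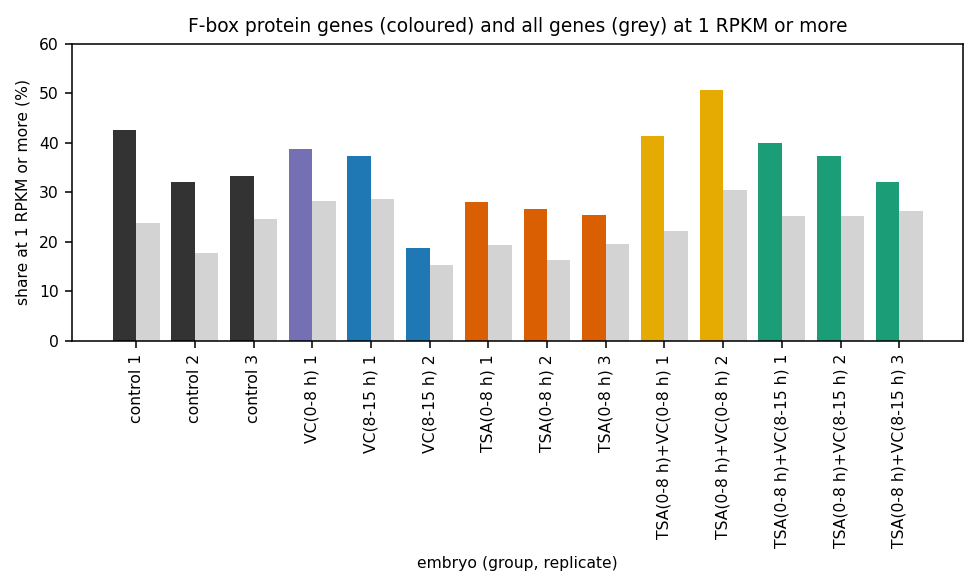
Share of the 75 F-box protein genes (coloured by group) and of all 20242 genes (grey) at 1 RPKM or more, in percent, in each of the 14 embryos. The members' bar is above the grey bar in every embryo, from 18.7% in late VC replicate 2 to 50.7% in TSA+early VC replicate 2.

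Levels of 1 gene differed widely between embryos of 1 group. Of the members, 54 reached 10 RPKM in at least 1 embryo, 49 of these were under 1 RPKM in another, and 39 spanned this range within a single group of 3 embryos. Within the groups of 3, the median SD was 1.99 (log2(RPKM+1) scale) over the 44 members at 1 RPKM or more in any 3 embryos. This was close to the 2.06 over all 7518 such genes. The groups of 1 and 2 embryos did not enter this SD. Of these 44 members, Fbxw21 varied most (SD 3.49) and Fbxo46 least (SD 0.53). Fbxo46 was at 0 to 1.27 RPKM in the groups of 3, so its small SD is that of a gene near the floor. It had 43.4 RPKM in the early VC embryo and 38.6 and 0.026 RPKM in the TSA+early VC embryos. The 10 highest members by mean log2(RPKM+1) were Fbxo15, Fbxo11, Fbxo42, Fbxo34, Fbxl5, Fbxo33, Fbxl19, Fbxo5, Fbxw28 and Fbxw2.

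**Figure D2:**
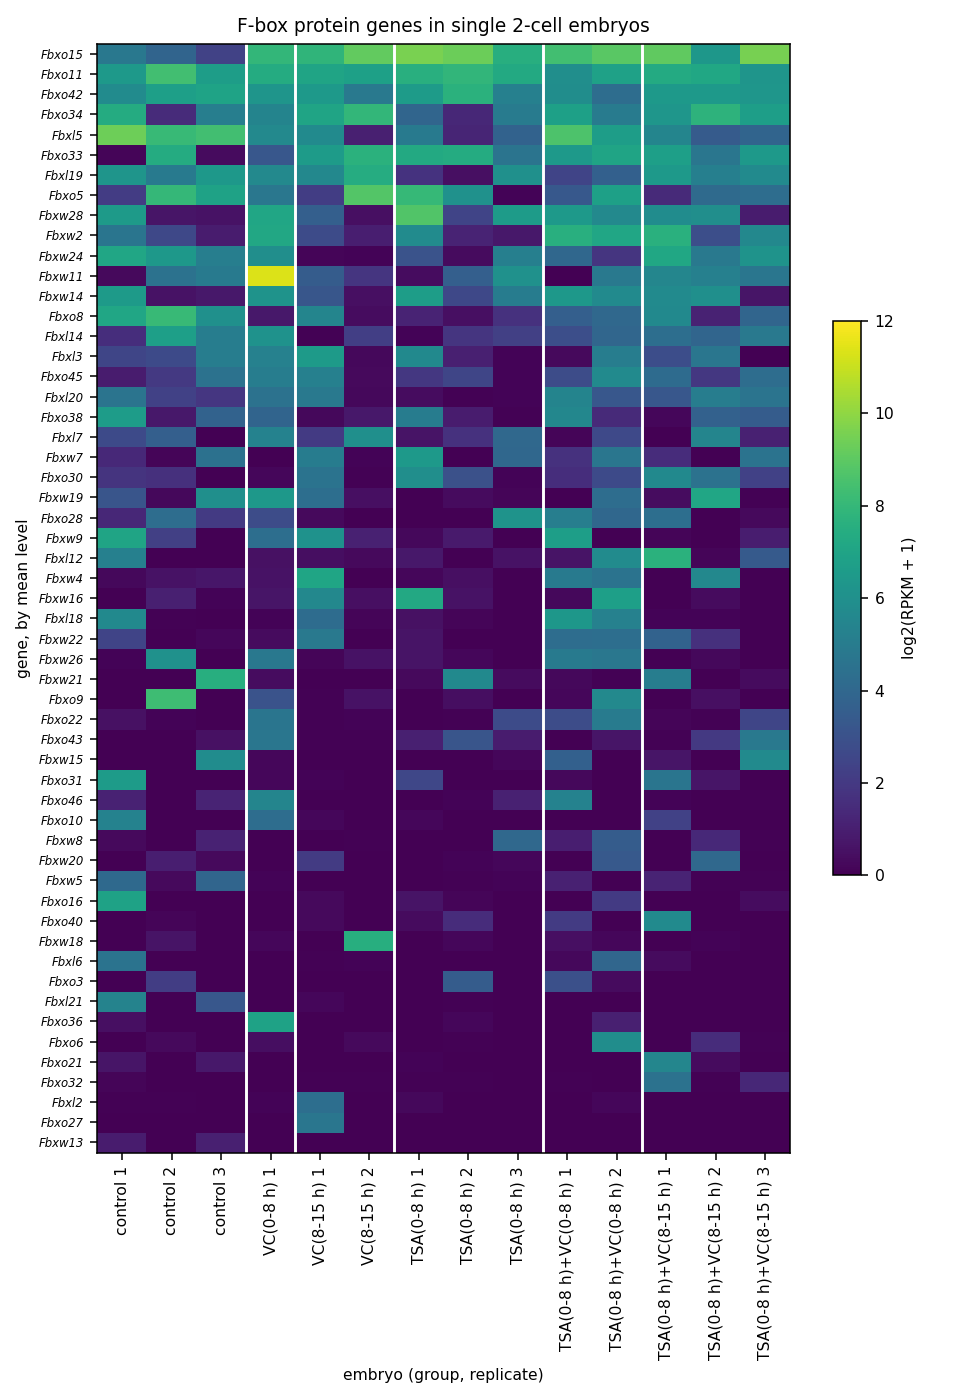
Levels of the 55 F-box protein genes that reached 1 RPKM in at least 1 embryo, as log2(RPKM+1) in colour, with genes in rows by mean level and the 14 embryos in columns by group. Bright rows across all groups are limited to the top genes such as Fbxo11 and Fbxo42, and most rows are bright in some embryos and dark in others of the same group.

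Fbxo11 and Fbxo42 were high in every embryo. Fbxo11, whose protein marks the transcription factor BCL6 and the cell cycle protein CDT2 for degradation, ranged from 60.3 to 333 RPKM with a median of 134 RPKM over the 14 embryos. Fbxo42, whose protein targets p53, ranged from 18.7 to 204 RPKM with a median of 81.4 RPKM. Their SD within groups was 0.71 and 0.81 on the log2 scale, at percentiles 5.13 and 6.61 of the 7518 genes, so they belonged to the steadiest genes of these libraries. The difference of TSA+late VC from control was -0.28 ± 0.90 (log2 scale, SE) for Fbxo11 and -0.08 ± 0.97 for Fbxo42, and the controls overlapped with every treated group for both. For Fbxo11 the TSA+early VC embryos, at 60.3 and 117 RPKM, were below the TSA embryos, at 192, 236 and 153 RPKM (-1.17 ± 1.08, adjusted p = 0.68, limma).

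Fbxo15 was the member with the highest mean level. It was also the only one of the 75 members that was higher in each treated embryo than in any control. It is a known target of Oct4 and Sox2 that is active in embryonic stem cells, and lies at chr18:85104550-85150768 (mm9). The control embryos had 26.5, 13.7 and 4.22 RPKM. The early VC embryo had 248 RPKM, the late VC embryos 226 and 560 RPKM, and the TSA embryos 778, 635 and 182 RPKM. The TSA+early VC embryos had 327 and 483 RPKM and the TSA+late VC embryos 545, 81.2 and 747 RPKM. All 11 treated embryos were therefore above the highest control, and the treated groups overlapped with each other. Since both cells of an embryo were lysed together, RNA in fewer cells and less RNA per cell cannot be told apart for this or any other gene.

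The mean level of Fbxo15 was 14.8 ± 11.2 RPKM (SD, n = 3) in control, 532 ± 311 RPKM (SD, n = 3) in TSA and 458 ± 342 RPKM (SD, n = 3) in TSA+late VC embryos. On the log2(RPKM+1) scale the difference from control was 5.13 ± 1.37 (SE) with TSA (adjusted p = 0.14, limma), 4.65 ± 1.21 with TSA+late VC (adjusted p = 0.11, limma) and 4.80 ± 1.73 with late VC (adjusted p = 0.22, limma). None passed the threshold of an adjusted p of 0.05 over all genes. These comparisons share the 3 control embryos. Within the sequencing pools the difference between TSA and control was 4.82, 5.44 and 5.13, and that between TSA+late VC and control 4.31, 2.48 and 7.16. Of the markers of 2-cell embryos, the summed level of 7 genes (Zscan4c, Zscan4d, Tcstv1, Tcstv3, Zfp352, Tdpoz4 and Sp110) was 28.1 to 818 RPKM in control, 552 to 851 RPKM in TSA and 789 to 2219 RPKM in TSA+late VC embryos, and its part in the Fbxo15 result was not tested. Sp110 alone was at 22.2 to 536, 186 to 703 and 448 to 1854 RPKM in these groups. Single markers differed in direction. Tcstv1 was at 1.38 to 73.1 RPKM in control and 0.403 to 19.1 RPKM in TSA embryos, and Zfp352 at 0.326 to 125 and 135 to 225 RPKM.

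In the model of all 14 embryos, with additive terms for TSA, early VC and late VC, Fbxo15 had a TSA term of 2.37 ± 0.77 (log2 scale, SE, unadjusted p = 0.0031, adjusted p = 0.95, limma) and a late VC term of 1.91 ± 0.86 (unadjusted p = 0.029, adjusted p = 0.73, limma). The interaction of both agents, fitted on the 11 embryos without early VC, was -5.28 ± 1.70 (unadjusted p = 0.0026, adjusted p = 0.89, limma). The negative sign says that the level with both agents was lower than the sum of the differences with each agent alone, which is seen in the levels themselves, where late VC, TSA and their combination overlapped.

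Fbxl5 went the other way. Its protein senses iron and, in an SCF ligase, degrades the iron regulatory protein IRP2, the product of Ireb2. The gene lies at chr5:44135855-44212878 (mm9). The control embryos had 656, 271 and 332 RPKM. The early VC embryo had 49.8 RPKM, the late VC embryos 52.8 and 1.06 RPKM and the TSA embryos 29.6, 1.37 and 12.7 RPKM. The TSA+late VC embryos had 42.5, 9.93 and 13.8 RPKM, while the TSA+early VC embryos had 402 and 100 RPKM. Of the 11 treated embryos, 10 were below every control, and the exception was TSA+early VC replicate 1.

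The mean level of Fbxl5 was 420.0 ± 207 RPKM (SD, n = 3) in control, 14.6 ± 14.2 RPKM (SD, n = 3) in TSA and 22.1 ± 17.8 RPKM (SD, n = 3) in TSA+late VC embryos. The difference from control on the log2(RPKM+1) scale was -5.29 ± 1.47 (SE) with TSA (adjusted p = 0.14, limma), -4.35 ± 1.02 with TSA+late VC (adjusted p = 0.11, limma) and -5.21 ± 1.52 with late VC (adjusted p = 0.15, limma). Within pools the difference between TSA+late VC and control was -3.92, -4.64 and -4.49. The TSA+early VC embryos were 4.34 ± 1.89 above the TSA embryos (unadjusted p = 0.044, adjusted p = 0.25, limma). Ireb2 itself, chosen as the partner of Fbxl5 after its values were seen, was at 31.2 to 257 RPKM in all 14 embryos.

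**Figure D3:**
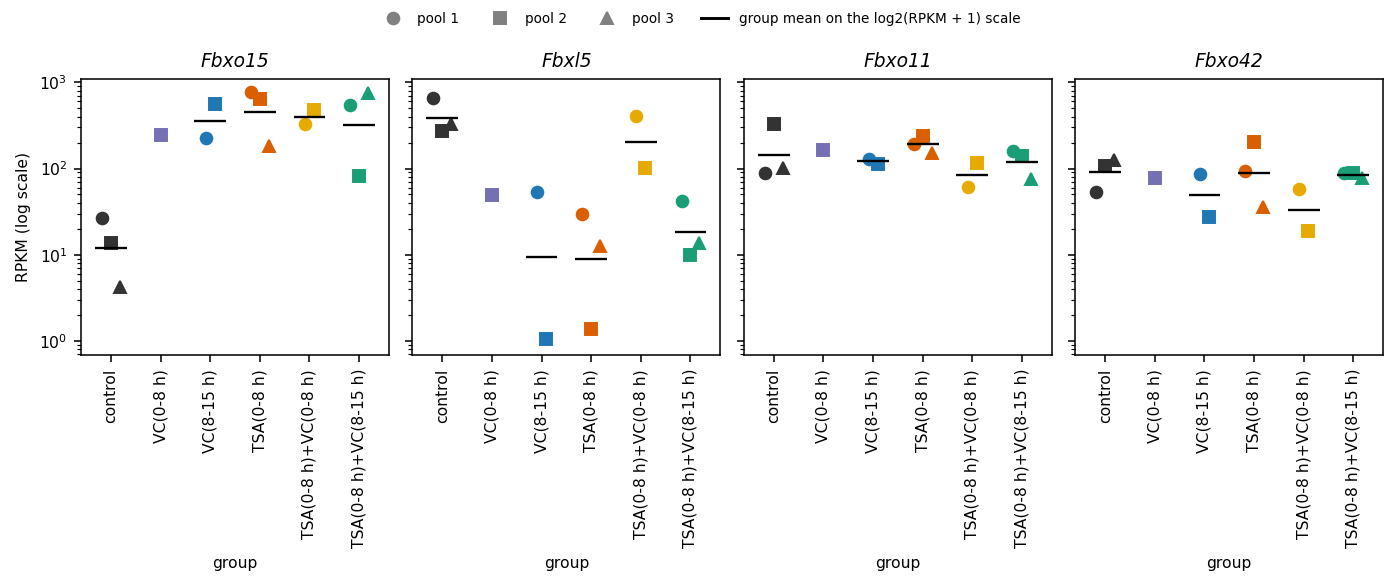
Levels of Fbxo15, Fbxl5, Fbxo11 and Fbxo42 in RPKM on a log axis by group, with 1 point per embryo, its shape giving the sequencing pool, and the bar of each group of 2 or 3 at the mean of log2(RPKM+1). The 3 control embryos are the lowest for Fbxo15 and, with 1 TSA+early VC embryo, the highest for Fbxl5, whereas for Fbxo11 and Fbxo42 the controls overlap with every treated group.

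The level of Fbxl5 is the sum of 2 transcript entries, whose lengths, as implied by the step of 1 read in the RPKM values, are 2855 and 1196 bases. In control replicates 1 and 2 and TSA+early VC replicate 1, the number of reads on the long entry (3000, 1570 and 1106) was within 2 reads of that on the short entry (3000, 1569 and 1104), as it would be where the same reads were counted in both. Where they are the same reads, the summed level counts them again. Control replicate 3 had 7283 reads on the long and 2352 on the short entry, and TSA+early VC replicate 2 had 1657 and 880.

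The short entry separated the groups more sharply than the long one. It was at 145 to 463 RPKM in the control embryos and at 283 and 56.2 RPKM in the TSA+early VC embryos, but at 4.84 RPKM or less in the 9 others. In those, reads on the long entry were at 0.403 to 52.0 RPKM, against 80.1 to 194 RPKM in controls. In 6 of these 9 embryos the long entry had 251 to 1464 reads and the short entry 1 to 9, so nearly all the reads counted on the long entry were not counted on the short one. Reads were thus placed differently along Fbxl5 in these embryos than in control replicates 1 and 2, where the long entry had 0 and 1 reads more than the short entry. The long entry alone also kept the controls above the VC, TSA and TSA+late VC embryos.

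**Figure D4:**
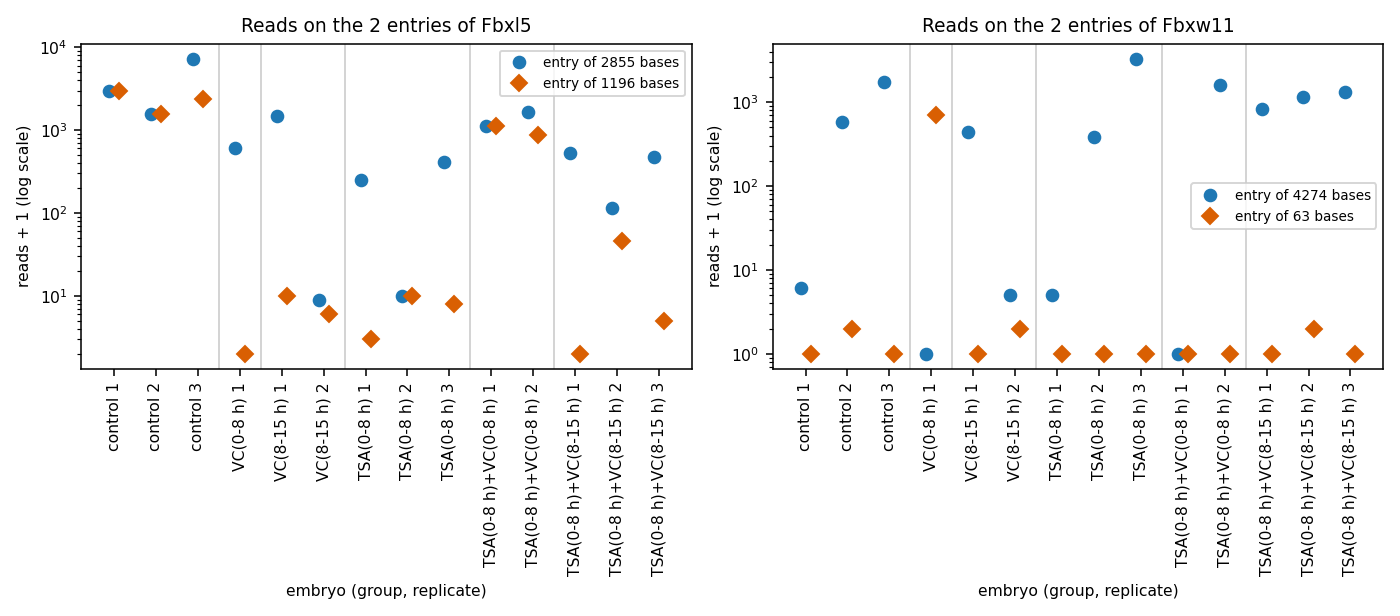
Reads recovered from the RPKM values, plus 1, on a log axis for each of the 14 embryos, on the long (circles) and short (diamonds) entries of Fbxl5 and of Fbxw11. The short entry of Fbxl5 has 880 reads or more only in the 3 control and 2 TSA+early VC embryos, and that of Fbxw11 has 706 reads in the early VC embryo and at most 1 elsewhere.

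Fbxw11 had the highest single value of all members, 2631 RPKM in the early VC embryo, and is described here after its values were seen. It encodes beta-TrCP2, which targets beta-catenin and the inhibitor of NF-kappa-B. The value rests on an entry with an implied length of 63 bases, on which this embryo had 706 reads, while it had 0 reads on the entry of 4274 bases. The 13 other embryos had at most 1 read on the short entry and 0 to 3305 on the long one. The annotation of mm9 (GENCODE vM1) has a single Fbxw11 exon of 63 bases, at chr11:32608188-32608250 on the plus strand, which is coding in 3 of the 7 annotated transcripts. Its sequence is shown because 1 short exon of this length could carry the whole value, but the entry was matched to it by length alone:
Fbxw11 exon: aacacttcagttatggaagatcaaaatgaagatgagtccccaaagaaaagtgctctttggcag
Division by so short a length turned 706 reads into the highest level of the family, and without the short entry the range of Fbxw11 was 0 to 65.8 RPKM.

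Fbxo5 and Fbxo43 encode Emi1 and Emi2, inhibitors of the anaphase-promoting complex, and Emi2 holds the egg at metaphase until activation. Fbxo5 was at 3.37, 253 and 119 RPKM in the control embryos, at 266, 65.3 and 0.094 RPKM in the TSA embryos and at 1.66, 16.6 and 18.5 RPKM in the TSA+late VC embryos. The groups overlapped, and the difference between TSA+late VC and control was -2.40 ± 1.80 (log2 scale, SE, adjusted p = 0.53, limma). Fbxo43 reached 1 RPKM in 5 of the 14 embryos, with 28.2 RPKM in TSA+late VC replicate 3, 25.0 RPKM in the early VC embryo and 8.06 RPKM in TSA replicate 2 as its highest values, and was at 0.474 RPKM or less in the controls. Cdc20, an activator of the complex that they inhibit, looked at after its values were seen, was at 2.92 to 318 RPKM in all 14 embryos.

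Fbxo8 and Fbxl20 were low in all 3 TSA embryos. Fbxo8, whose protein acts on the small GTPase ARF6, had 135, 273 and 63.8 RPKM in control and 1.31, 0.399 and 2.32 RPKM in TSA embryos. It had 51.0, 1.24 and 13.9 RPKM in TSA+late VC embryos, all below the controls. The difference from control was -5.93 ± 2.01 (log2 scale, SE, adjusted p = 0.15, limma) with TSA and -3.48 ± 1.42 (adjusted p = 0.20, limma) with TSA+late VC. Between TSA and control, Fbxo8 was tested only because all controls had at least 1 RPKM, which built in a difference. In the early VC embryo Fbxo8 was at 0.732 RPKM, in the late VC embryos at 42.6 and 0.302 RPKM and in the TSA+early VC embryos at 11.6 and 15.4 RPKM. All 11 treated embryos were thus below the lowest control, which held for no other member.

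Fbxl20, known from the turnover of the synaptic protein RIM1, had 23.4, 3.98 and 2.79 RPKM in the control embryos. It had 0.308, 0.0595 and 0.0692 RPKM in the TSA embryos, which are 8, 4 and 7 reads. It had 8.53, 33.3 and 23.6 RPKM with TSA+late VC and 41.4 and 8.62 RPKM with TSA+early VC. The TSA embryos were thus below all embryos of these 3 groups, while late VC replicate 2 was as low as they were, at 0.212 RPKM. The difference was -2.76 ± 0.92 (log2 scale, SE, adjusted p = 0.15, limma) for TSA against control, 4.14 ± 1.04 (adjusted p = 0.067, limma) for TSA+late VC against TSA and 4.15 ± 1.04 (adjusted p = 0.055, limma) for TSA+early VC against TSA. The latter comparisons share the 3 TSA embryos. In each comparison Fbxl20 was tested only because every embryo of the group where it was high had at least 1 RPKM. A difference was thus built in by the choice of genes.

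Fbxo30, Fbxo34 and Fbxl14 were higher with TSA+late VC without overlap in 1 comparison each. Fbxo30, whose protein is involved in muscle atrophy, had 2.45, 2.20 and 0 RPKM in control and 50.6, 21.8 and 4.07 RPKM in TSA+late VC embryos (difference 3.03 ± 1.43, log2 scale, SE, adjusted p = 0.28, limma). Fbxo34 had 14.2, 1.51 and 31.2 RPKM in TSA and 78.7, 218 and 103 RPKM in TSA+late VC embryos (3.51 ± 1.51, adjusted p = 0.22, limma). It was also high in the late VC embryos, at 129 and 248 RPKM, and its late VC term over all 14 embryos was 3.18 ± 1.16 (unadjusted p = 0.0079, adjusted p = 0.62, limma). Fbxl14, whose protein degrades the transcription factor Snail, had 0.078, 2.61 and 3.81 RPKM in TSA and 19.3, 14.1 and 28.1 RPKM in TSA+late VC embryos (2.97 ± 1.39, adjusted p = 0.28, limma). Fbxo30 and Fbxl14 were tested in these comparisons only because all TSA+late VC embryos had at least 1 RPKM, which built in a difference. The remaining group of 3 overlapped with TSA+late VC for each gene. Fbxo30 had 60.2, 6.87 and 0.085 RPKM in TSA embryos. In control embryos Fbxo34 had 166, 1.76 and 33.9 RPKM and Fbxl14 had 1.92, 109 and 33.0 RPKM.

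For Fbxo33, Fbxl19 and Fbxw2, also among the 10 highest members, the groups of 3 embryos overlapped. Fbxo33, whose protein targets the Y-box protein YB-1, was at 0.107 and 0.278 RPKM in control replicates 1 and 3 and at 167 RPKM in replicate 2, while the 11 treated embryos had 8.45 to 199 RPKM. Fbxl19, whose protein binds unmethylated CpG DNA, was at 30.1 to 82.7 RPKM in control embryos and at 2.33, 0.413 and 64.7 RPKM in TSA embryos. Fbxw2, whose protein targets the placental factor GCM1, was at 0.903 to 24.3 RPKM in control embryos and at 6.49 to 195 RPKM in TSA+late VC embryos. Its TSA+early VC embryos, at 191 and 137 RPKM, were above the TSA embryos, at 54.5, 1.32 and 0.720 RPKM (4.75 ± 2.18, log2 scale, SE, adjusted p = 0.28, limma). The difference from control was 3.37 ± 1.96 (log2 scale, SE, unadjusted p = 0.10, limma) for Fbxo33 with TSA+late VC and -3.11 ± 2.06 (adjusted p = 0.54, limma) for Fbxl19 with TSA. In these comparisons each gene was tested through 1 group alone. That group was TSA+late VC for Fbxo33, control for Fbxl19 and TSA+early VC for Fbxw2. A difference was thus built in for each.

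The Fbxw genes with a number of 12 or more form a family of their own, and 12 of the 13 lie in a row on the minus strand within chr9:109041968-109648603 (mm9), a stretch of 607 kb. The thirteenth, Fbxw17, is elsewhere and was at 0 in all embryos. Among the 66 pairs of cluster genes, 29 have coding sequences of equal length, and these are 71.4 to 99.1% identical, with a median of 81.9%. The pair Fbxw14 and Fbxw28 is the closest, with 1388 of 1401 coding bases identical. A stretch of the same coding positions, 781 to 930 in coding exon 7, is shown for this pair and for Fbxw24, the cluster gene that led in the most embryos together with Fbxw28, because reads can be assigned to 1 of these genes only where the letters differ. Sequences are from the minus strand of mm9, at chr9:109178680-109178829, chr9:109230763-109230912 and chr9:109509547-109509696, and capitals mark bases that differ from Fbxw14:
Fbxw14: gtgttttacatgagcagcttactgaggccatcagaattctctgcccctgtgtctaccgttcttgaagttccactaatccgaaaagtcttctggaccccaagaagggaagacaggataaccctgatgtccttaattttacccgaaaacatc
Fbxw28: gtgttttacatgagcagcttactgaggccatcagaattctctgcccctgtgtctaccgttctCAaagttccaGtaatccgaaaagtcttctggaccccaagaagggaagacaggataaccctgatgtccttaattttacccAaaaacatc
Fbxw24: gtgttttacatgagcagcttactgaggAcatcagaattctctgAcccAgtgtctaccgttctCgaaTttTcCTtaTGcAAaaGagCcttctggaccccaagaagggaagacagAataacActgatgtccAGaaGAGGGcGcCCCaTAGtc
In these 150 bases Fbxw28 differs from Fbxw14 at 4 positions and Fbxw24 at 30. Over the whole coding sequence, 919 of the 1352 windows of 50 bases, the length of a read, are the same in Fbxw14 and Fbxw28 (68.0%). In the other 10 genes, 3.55 to 14.0% of the windows occur in another gene of the cluster.

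Reads of Fbxw14 and Fbxw28 went together. In control replicates 1 to 3, Fbxw14 had 754, 5 and 14 reads and Fbxw28 had 739, 6 and 10. In 3 embryos Fbxw28 had clearly more, with 1898 against 465 reads in TSA replicate 1, 1656 against 552 in TSA replicate 3 and 864 against 444 in the early VC embryo. In the 11 others the numbers were alike, from 4 and 4 to 1032 and 950. Since most 50-base windows of this pair are the same in both, how reads were split between them is uncertain, and their levels should be read as those of a pair.

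**Figure D5:**
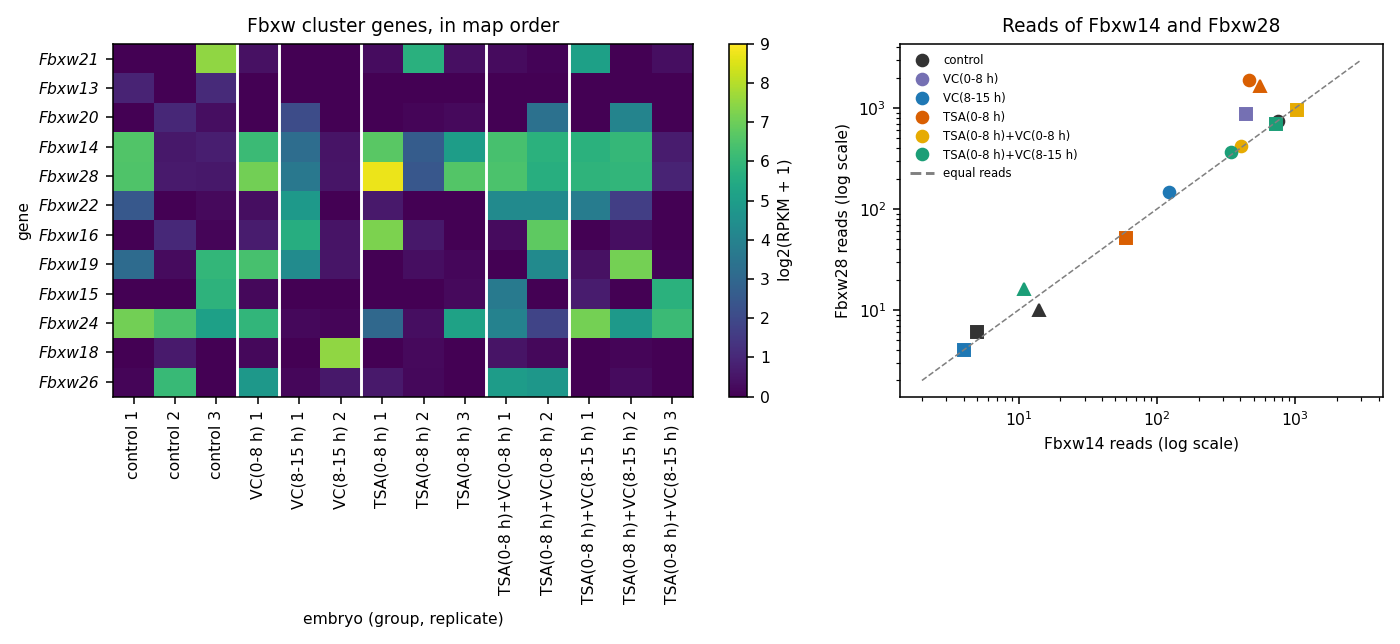
Left, levels of the 12 genes of the Fbxw cluster as log2(RPKM+1) in colour, in map order, in the 14 embryos; right, reads of Fbxw14 against reads of Fbxw28 on log axes, with circles, squares and triangles for pools 1, 2 and 3 and a dashed line of equal reads. Different genes are bright in different embryos of 1 group, except that Fbxw14 and Fbxw28 follow each other, with 3 embryos well above the line.

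The leading gene of the cluster differed between embryos, also within groups. Fbxw24 led in 4 embryos, Fbxw28 in 4, Fbxw21 and Fbxw16 in 2 each, and Fbxw18 and Fbxw19 in 1 each. In the controls Fbxw24 led with 135 and 83.4 RPKM in replicates 1 and 2, while Fbxw21 led with 183 RPKM in replicate 3 and was at 0 in the other two. Between 1 and 8 of the 12 genes were at 1 RPKM or more in an embryo. The summed level of the 13 genes was 274 ± 105 RPKM (SD, n = 3) in control, 302 ± 333 RPKM (SD, n = 3) in TSA and 243 ± 102 RPKM (SD, n = 3) in TSA+late VC embryos, so the groups overlapped although the genes behind the sum did not stay the same. Of the rest of the cluster, Fbxw15, Fbxw16, Fbxw18, Fbxw19 and Fbxw20 reached 15.6 to 181 RPKM in their highest embryo, Fbxw22 and Fbxw26 28.2 and 65.2 RPKM, and Fbxw13 only 1.09 RPKM.

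Fbxw24 was far below the controls in both late VC embryos. It had 135, 83.4 and 34.0 RPKM in the control embryos and 0.136 and 0.102 RPKM in the late VC embryos. It had 7.33, 0.258 and 35.3 RPKM with TSA and 139, 28.1 and 69.9 RPKM with TSA+late VC. The difference of late VC from control was -6.04 ± 2.32 (log2 scale, SE, adjusted p = 0.26, limma), and its interaction term was 9.23 ± 2.93 (unadjusted p = 0.0022, adjusted p = 0.89, limma). The embryos with late VC were thus below the controls without TSA (2 embryos) and overlapped with them with TSA (3 embryos). Between late VC and control, Fbxw24 was tested only because all controls had at least 1 RPKM, which built in a difference.

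Fbxw22 and Fbxw26 were high in both TSA+early VC embryos and near 0 in the TSA embryos. Fbxw22 had 18.8 and 19.0 RPKM against 0.544, 0 and 0 RPKM, and Fbxw26 had 30.1 and 26.4 RPKM against 0.544, 0.140 and 0 RPKM. The difference on the log2(RPKM+1) scale was 4.10 ± 0.96 (SE, adjusted p = 0.055, limma) for Fbxw22 and 4.60 ± 1.15 (adjusted p = 0.055, limma) for Fbxw26. The same comparison had 2 more members at like values, named after these were seen, Fbxw4 (4.52 ± 1.10, adjusted p = 0.055, limma) and Fbxl18 (5.56 ± 1.46, adjusted p = 0.057, limma). The size of these differences depends on the added 1 RPKM, since the TSA embryos had 0 to 6 reads of these 4 genes. All 4 were tested only because both TSA+early VC embryos had at least 1 RPKM. A difference was thus built in by the choice of genes, and these p-values do not support one.

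Across the family, no member passed an adjusted p of 0.05 in any of the 8 fits with limma, and the share of all genes that passed was 0% in each, except for the late VC term with 0.0133% (1 gene, no member). At an unadjusted p under 0.05, TSA+late VC against control had 1 member higher (Fbxo15) and 2 lower (Fbxl5 and Fbxo8) among 18 tested, against 17.7% of the 3297 genes tested. TSA against control had 1 higher (Fbxo15) and 3 lower (Fbxl5, Fbxl20 and Fbxo8) among 16, against 14.9% of 2471 genes. TSA+late VC against TSA had 2 higher (Fbxl20 and Fbxo34) and 0 lower among 18, against 18.3% of 3115 genes. The members' shares in these 3 comparisons were 16.7, 25 and 11.1%. All genes at this threshold split into 461 higher and 124 lower, 136 and 232, and 501 and 68, in the same order. With limma-voom on recovered reads, the numbers of members past an adjusted p of 0.05 were 0, 0 and 1 (Fbxl20) in these comparisons. The share of all genes that passed with limma-voom was not counted. Fbxl20 was tested there only because all TSA+late VC embryos had at least 1 RPKM, which built in a difference.

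Among the tested members, groups of 3 did not overlap for 2 members higher and 2 lower in TSA+late VC against control, beside 21.4% of all genes tested. They did not overlap for 1 higher and 3 lower in TSA against control, beside 18.2%, and for 3 higher and 0 lower in TSA+late VC against TSA, beside 21.6%. The counts over all genes were 517 higher and 188 lower, 164 and 286, and 566 and 108, in this order. In the smaller groups, late VC against control had 1 member higher and 4 lower at an unadjusted p under 0.05 among 18, beside 13.7% of 3059 genes. The members were Fbxo15, which was higher, and Fbxl5, Fbxw24, Fbxo28 and Fbxo8, which were lower (Fbxo28 was named after its value was seen). TSA+early VC against TSA had 6 members higher (Fbxw22, Fbxw4, Fbxw26, Fbxl20, Fbxl18 and Fbxl5) and 0 lower among 25, beside 18.2% of 3661 genes. All genes had 285 higher and 135 lower in late VC against control and 622 and 44 in TSA+early VC against TSA. A gene was tested where all embryos of either group had 1 RPKM, so a member that passed through 1 high group had to differ, and these counts are no measure of the family's response.

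Over all 14 embryos, 1 of 44 members (Fbxo15, higher) had an unadjusted p under 0.05 for the TSA term, beside 4.74% of 7518 genes. For the late VC term it was 2 (Fbxo34 and Fbxo15, both higher), beside 6.68%. The interaction had 5 of 34 members, beside 4.49% of 6551 genes. Of these, Fbxw24, Fbxl5 and Fbxo8 had a positive sign and Fbxo15 and Fbxw16 a negative one. All genes had 159 higher and 197 lower for the TSA term, 407 and 95 for late VC, and 205 and 89 for the interaction.

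On the 44 members at 1 RPKM in any 3 embryos, a choice that does not look at the groups, the median difference between TSA+late VC and control was -0.07 on the log2 scale (21 higher, 23 lower), beside 0.38 over the 7518 genes. TSA against control had a median of -0.59 (15 higher, 29 lower) beside -0.24, and late VC against control -0.48 (15 higher, 29 lower) beside -0.02. TSA+late VC against TSA had 0.42 (27 higher, 17 lower) beside 0.71, which became -0.29 (19 higher, 25 lower) beside 0.06 after quantile normalization and -0.20 (20 higher, 24 lower) beside 0.04 after median-ratio scaling. TSA+early VC against TSA had 1.10 (33 higher, 11 lower) beside 0.66, and 0.38 (27 higher, 17 lower) after quantile normalization. Relative to all genes, the members' median was lower in the first 4 of these comparisons and higher in the last, and the difference from all genes was not tested.

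Single embryos often held a member that was near 0 in the rest. For 10 members the highest embryo was at least 10 times the next one. Besides Fbxw11, the highest were Fbxw18 with 181 RPKM (1803 reads) in late VC replicate 2 against 0.575 RPKM in the next embryo, Fbxo16 with 119 RPKM (794 reads) in control replicate 1 against 3.11 RPKM, and Fbxo36 with 119 RPKM (455 reads) in the early VC embryo against 1.10 RPKM. Fbxo27 had 120 reads in late VC replicate 1 and 0 in the 13 other embryos. The remaining members of this kind were Fbxl2, Fbxo6, Fbxo21, Fbxo32 and Fbxo40, with 19.4 to 58.3 RPKM in 1 embryo. They were named by this spread, after their values were seen, and belong to 6 different embryos of 5 groups together with Fbxw11.

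The partners of F-box proteins in the SCF ligase were not equally present as RNA, as the subunits named first here, chosen after their values were seen, show. The scaffold Cul1 was at 30.4 to 910 RPKM in all 14 embryos. The adaptor Skp1 was at 0.105 to 491 RPKM and the RING subunit Rbx1 reached 1 RPKM in only 5 of the 14. Of the 27 genes of the SCF core and of the cycle that adds and removes NEDD8 on cullins, 15 were tested between TSA+late VC and control, with 3 higher and 1 lower at an unadjusted p under 0.05 and 0 past the adjusted threshold. Gps1, a subunit of the COP9 signalosome, which removes NEDD8, had the smallest p of the list, at 170.5 ± 107 RPKM (SD, n = 3) against 1.39 ± 1.19 RPKM (SD, n = 3) in controls (difference 6.10 ± 1.63, log2 scale, SE, adjusted p = 0.11, limma). With TSA, 9 were tested, with 2 higher and 1 lower, and the smallest p was that of Cops2, another subunit (4.85 ± 1.48, adjusted p = 0.14, limma). Gps1 was at 0.078 RPKM in control replicate 2 and Cops2 at 0.227, 0 and 0 RPKM in the controls. Both were thus tested only through the treated group where they were high, which built in a difference.

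Of 8 F-box genes with other symbols, 5 were tested between TSA+late VC and control and 0 had an unadjusted p under 0.05 in limma. The smallest p was that of Ccnf, cyclin F, at 123 ± 80.9 RPKM (SD, n = 3) against 49.6 ± 75.0 RPKM (SD, n = 3) in controls (adjusted p = 0.35, limma). Of 19 known substrates and partners, 10 were tested, with 0 higher and 1 lower at an unadjusted p under 0.05. That gene was Cpeb1, which encodes an RNA-binding protein degraded as the oocyte matures, at 0.546 ± 0.874 RPKM (SD, n = 3) against 23.7 ± 10.8 RPKM (SD, n = 3) in controls (adjusted p = 0.11, limma). With TSA, 2 F-box genes with other symbols and 10 substrates and partners were tested, and again Cpeb1 alone had an unadjusted p under 0.05 (-3.53 ± 1.62, adjusted p = 0.30, limma). Cpeb1 was tested in both comparisons only because all controls had at least 1 RPKM, and Ccnf only because all TSA+late VC embryos had. A difference was thus built in for both genes.

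The labelled stage was checked by markers. The oocyte gene Bmp15 was at 91.3 to 519.5 RPKM and the 2-cell gene Sp110 at 22.2 to 1854 RPKM, both in all 14 embryos. Other markers of these lists were patchy. Of the 8 oocyte markers, Oosp1 was also at 1 RPKM or more in all 14 embryos, but Zp2 in 7 and Ooep in 3, with Ooep at 0 in 7. Of the 7 markers of 2-cell embryos, Tcstv1 and Zfp352 were at this level in 13, but Zscan4c in 3 and Zscan4d in 4, each at 0 in 7. Of 10 cumulus cell markers, 7 were under 1 RPKM in every embryo, with Fshr and Inhba at 0 throughout, and Has2 and Star reached 1.82 and 1.49 RPKM in 1 embryo each. The tenth, Amhr2, was at 1 RPKM or more in 7 embryos, with 144 RPKM in TSA replicate 3 as its highest value. It had 2.13, 63.4 and 45.5 RPKM in the TSA+late VC embryos. The summed level of the list was 0 to 144 RPKM per embryo, and its highest values were nearly all Amhr2. It was 0 to 18.4 RPKM in control, 0 to 144 RPKM in TSA and 2.13 to 63.6 RPKM in TSA+late VC embryos.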

How the data were processed

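Single embryos were sequenced as single-end reads on the HiSeq2000 after amplification with the Ovation Single Cell kit. Low-quality reads and bases and adaptors were removed, reads were mapped to mm9 (TopHat2 in the submitters' processing notes) and those on UCSC exons were counted. The authors deposited RPKM values, scaled to total counts and transcript length, with 1 entry per RefSeq transcript. Versions were not given in the sources used here.

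Entries of a gene were summed. RPKM values move in steps of 1 read, and whole reads were recovered for 14531 of the 14532 entries with reads in 2 or more embryos, giving 3021540 to 13589389 reads per embryo. Of these totals 99.75 to 99.96% were recovered. A floor of 3 reads was used, which covers counting error only, since amplified reads are not independent molecules.

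Genes with at least 1 RPKM in every embryo of either group were compared on log2(RPKM+1), with a pseudocount of 1, by limma 3.58.1 (lmFit, eBayes with trend, R 4.3.3) over all genes, with Benjamini-Hochberg adjustment and a threshold of 0.05. Fold changes on this scale understate those of low genes. A gene that was tested through 1 group alone was high there by the choice, so its p-value does not support a difference. The additive terms over all 14 embryos used genes at 1 RPKM in any 3 of them, and the interaction those in any 3 of the 11 embryos without VC(0-8 h). The fits were tested on simulated data. Groups came from the labels, and for the embryos given TSA and then VC(8-15 h) the study states separate nuclear transfer experiments. For the other groups the sources used here do not say this, so p-values measure the spread between these embryos, which may be technical. Same-numbered embryos did not deviate together (correlations of -0.05 to 0.05), so numbers were not used as pairs.

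Genes named were those of the family's listed set (Fbxo15, Fbxl5, Fbxo5, Fbxo43 and the Fbxw genes from 12 on), the 10 highest, and up to 3 per comparison of 3 with 3 embryos and direction without overlap. From other lists the gene with the smallest p against control was named. The members and lists were chosen with earlier results of these data known. Sequences and coordinates are from NCBIM37 (mm9) with GENCODE vM1. Alternatives were a pseudocount of 0.1, no filter, a minimum of 5 RPKM, a filter blind to groups, the highest entry of a gene, quantile normalization, median-ratio scaling, eBayes without trend, a replicate block, the pool as a term, 1 fit of all 14 embryos, limma-voom on recovered reads, an adjusted p under 0.1 and leaving out each embryo. Python 3.11.15, numpy 2.4.6, pandas 2.3.3 and matplotlib 3.10.9 were used for other steps.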

Additional observations from a re-analysis of the deposited data

How the results depend on the processing

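No member passed an adjusted p of 0.05, and that count of 0 stayed for the TSA and late VC terms and the interaction under every alternative run. For the alternatives, the share of all genes past the threshold was not counted. The counts of members below have no such share beside them and are no measure of the family's response. With a pseudocount of 0.1, 1 member was higher and 1 lower (Fbxo15, Fbxl5) in TSA+late VC against control, 1 higher and 2 lower in TSA against control, 1 higher (Fbxl20) in TSA+late VC against TSA and 5 higher in TSA+early VC against TSA. A minimum of 5 RPKM, which tests fewer genes, gave the same counts in the first 3 comparisons, 6 in the last and 1 lower (Fbxl5) in late VC against control. In 1 fit of all 14 embryos Fbxo15 was the 1 member higher in both TSA and late VC against control. Voom gave 1 higher (Fbxl20) for TSA+late VC against TSA, 2 higher for TSA+early VC and 1 lower (Fbxw24) for late VC, and an adjusted p under 0.1 gave 1 and 5 higher in the comparisons with TSA. Leaving out 1 embryo gave 0 to 1 higher for TSA+late VC against TSA (1 without TSA+late VC replicate 2), 0 to 1 lower for late VC against control (1 without late VC replicate 1) and 0 to 5 higher for TSA+early VC against TSA (5 without either TSA+early VC embryo). Where this left 1 embryo in a group, that embryo was assumed to vary like the other group. The replicate block, whose numbers do not pair the embryos, gave 1 member higher (Fbxl20, adjusted p = 0.044, limma) for TSA+late VC against TSA and 0 elsewhere. Fbxl20, Fbxw24 and all members counted in TSA+early VC against TSA were tested only through the group where they were high. With a minimum of 5 RPKM this also held for Fbxo15, for Fbxo8, and for Fbxl5 in TSA and late VC against control. A difference was thus built in for these calls. Adjusted p values from limma ranged from 0.028 to 0.72 for Fbxo15 and from 0.015 to 0.72 for Fbxl5 in TSA+late VC against control over the alternatives, with the direction kept in all.

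Small differences between treated groups turned. Fbxl5 in TSA+late VC against TSA was 0.94 on the log2 scale, but -0.80 after quantile normalization and -0.14 after median-ratio scaling, and it ranged from -0.093 (without TSA replicate 2) to 1.75 when 1 embryo was left out. Fbxo15 there was -0.48, but 0.19 with voom, and ranged from -1.13 to 0.51 (without TSA+late VC replicate 2). In TSA+early VC against TSA, Fbxo15 was -0.17, but 0.14 after quantile normalization and 0.57 with voom, and ranged from -0.82 to 0.22, above 0 without TSA replicate 1 (0.22), TSA replicate 2 (0.077) or TSA+early VC replicate 1 (0.11). Apart from the smaller number of genes tested at 5 RPKM, the cause was not tested. With a floor of 3 reads, members at or under it could not be ranked.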
